A study of Mus musculus with 8 samples.

Results

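The 46 genes described here carry out glycolysis, the pentose phosphate pathway and the cellular response to low oxygen. They were chosen by name, and all 46 were found among the 16119 genes of the table, where symbols are written in capitals. Murine thyroid follicular cell organoids (TFCOs) were compared with thyroid tissue and, as an unrelated tissue, with lung tissue. The TFCOs came from lines mThy14 and mThy16, each grown from the cells of 1 mouse thyroid in basement membrane extract and each sequenced once at early and once at late passage. Thyroid tissue and lung tissue were sequenced in 2 libraries each, so every group held 2 libraries. All mice were wild type C57BL/6, none was treated, and their age was not given in the sources used here. Every TFCO library shared 1 medium, with R-spondin 3 conditioned medium (1%), the TGF-beta receptor inhibitor A83-01 (0.5 µM), the cAMP activator forskolin (FSK, 1 µM), EGF (500 ng/mL), FGF10 (100 ng/mL), N-acetylcysteine (1.25 mM), nicotinamide (10 mM), B27, Glutamax, HEPES and antibiotics. The passages of a line are cultures of the same mouse, so a comparison of TFCOs with a tissue rests on 2 lines, and whether the tissue libraries came from separate mice was not given.

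Glycolysis splits glucose into pyruvate. Hexokinases trap the glucose that enters through the GLUT transporters, phosphofructokinase and aldolase prepare the sugar for splitting, and the payoff steps from GAPDH to pyruvate kinase yield ATP. Lactate dehydrogenase and the pyruvate dehydrogenase kinases set whether pyruvate leaves as lactate or enters mitochondria, and the pentose phosphate pathway branches off to make NADPH and ribose. Under low oxygen the prolyl hydroxylases of the EGLN family no longer mark the HIF alpha subunits for destruction by VHL, and HIF then switches on many of these same genes. Thyroid follicular cells use NADPH to make the hydrogen peroxide that hormone synthesis needs.

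Between 9755081 and 16904865 reads were counted on genes in a library. The summed normalized counts of 7 follicular markers (TG, PAX8, NKX2-1, FOXE1, TSHR, SLC5A5 and DUOX2) ranged over 19843 to 159275 in TFCO libraries, against 1547910 and 2194850 for thyroid and 2949 and 2005 for lung, where PAX8 was listed at 0. Most of the thyroid sum was TG, the thyroglobulin gene, at 1526000 and 2175020 against 9532 to 126441 in TFCOs. All 4 TFCO libraries were below both thyroid tissues in TG, SLC5A5 and DUOX2, overlapped them in PAX8, NKX2-1 and FOXE1, and were above both in TSHR, the TSH receptor (1882 to 8582 against 1287 and 1087). The thyroid tissues also held RNA of other cells. Summed markers of skeletal muscle (9 genes) were 2595 to 3392 in TFCOs, 71058 and 189558 in thyroid and 255 and 687 in lung. Parathyroid markers (3 genes) were 7.92 to 27.1 in TFCOs against 9811 and 25996 in thyroid, and C cell markers (3 genes) 30.7 to 108 against 38477 and 67059. In bulk RNA, fewer cells of a type and less RNA per cell cannot be told apart.

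The libraries fell into 2 sets that did not follow the groups. The first set held the 4 TFCO libraries and thyroid tissue 1, and the second held thyroid tissue 2 and both lung tissues. Over all genes, 44 were listed at 0 throughout the second set and at 50 or more throughout the first, and 16 the other way round. Of the 127 ways to divide 8 libraries, no other gave more than 4 such genes. Each difference between TFCOs and thyroid is therefore printed below beside the difference from thyroid tissue 1 alone, and each difference between thyroid and lung beside that of thyroid tissue 2 alone. TFCOs and lung share no set, so for that comparison the tissue and the set cannot be told apart. The submitters' notes name a human and a mouse genome build without saying which libraries each served, so whether both sets were counted on the same reference was not given in the sources used here, and this limits every value compared across the sets.

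Several of the 46 genes separated by these sets. ALDOA, the aldolase of muscle and most other cells, was counted at 11.2 and 3.12 in early and late mThy14 TFCOs and 13.9 and 10.1 in early and late mThy16 TFCOs and at 14.2 in thyroid tissue 1. It was counted at 23081 in thyroid tissue 2 and at 7232 and 5012 in lung. ALDOC, a second aldolase, ran the other way, at 1422, 1018, 907 and 938 in the TFCOs (early and late mThy14, then early and late mThy16) and 1636 in thyroid tissue 1, against 45.2 in thyroid tissue 2 and 152 and 95.7 in lung. PGAM2, the muscle phosphoglycerate mutase, was listed at 0 in the first set and at 1921 and 90.5 and 137 in the second, and PGK2 was at 174 to 267 in TFCOs and 191 in thyroid tissue 1 and listed at 0 in the second. All in all, 13 of the 46 genes were higher throughout the first set, against 23.3% of all genes tested, and 10 were lower throughout it, against 20.3%. The 13 were SLC2A1, HK1, PFKL, ALDOC, GAPDH, PGK1, PGAM1, ENO1, ENO2, PKM, TALDO1, KDM3A and MXI1, and the 10 were PFKP, ALDOA, LDHA, LDHB, PFKFB4, EPAS1, EGLN1, VHL, ANKRD37 and LOXL2.

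**Figure D1:**
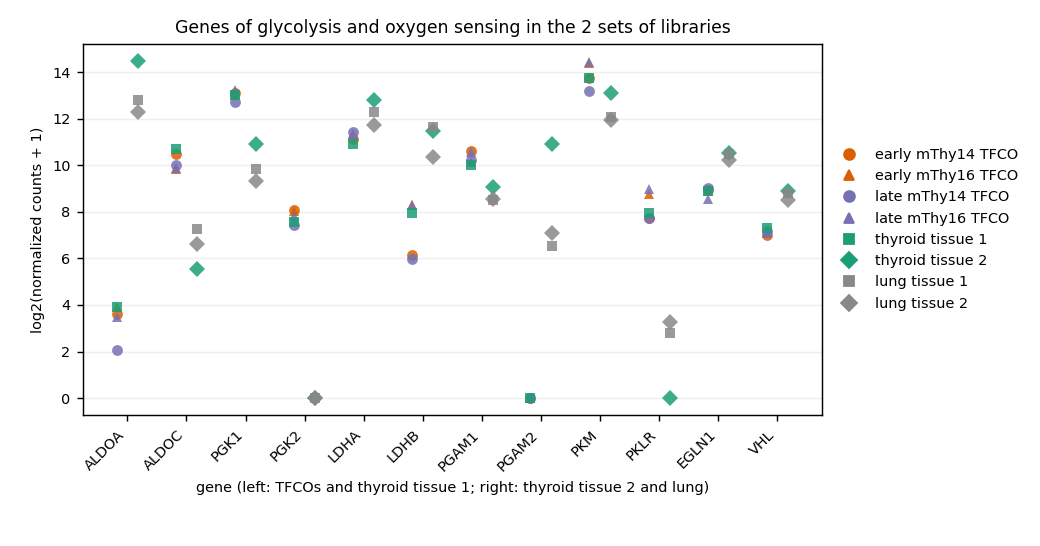
Log2(normalized counts + 1) of 12 genes of glycolysis and oxygen sensing in each of the 8 libraries, with TFCOs and thyroid tissue 1 to the left of each gene and thyroid tissue 2 and lung to the right. Thyroid tissue 1 sits with the TFCOs and apart from thyroid tissue 2 for ALDOA (14.2 against 23081 normalized counts), ALDOC, PGK2, PGAM2 and PKLR.

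Against thyroid tissue, 2 of the 46 genes passed the test and both fell in TFCOs, namely PDK4 and BNIP3. The test was limma on log2(normalized counts + 1) with Benjamini-Hochberg adjustment over 14703 genes, and a gene was called at an adjusted p below 0.05. Over all genes the called share was 3.65% in either direction, 3.05% lower and 0.599% higher, so the share among the 46 (4.35%) was near the background. At an unadjusted p below 0.05 stood 13 of the 46, or 28.3%, against 18.6% of all genes. The 4 TFCO libraries were above both thyroid libraries in 10 genes (21.7%, against 17.2% of all genes) and below both in 12 (26.1%, against 17.3%). The 46 genes were split evenly, with 23 above and 23 below thyroid, with a median log2 difference of 0.016 beside 0.046 for all genes. Against thyroid tissue 1 alone the median was -0.24, and 12 genes were lower by 2-fold or more (26.1% of the 46, against 18.9% of all genes) while 3 were higher by as much (6.52%, against 12.6%). The 3 were EGLN3, DDIT4 and KDM3A. The calls were not stable. Without thyroid tissue 2 PDK4 and BNIP3 lost their calls, NDRG1 gained one, and fewer of all genes were called. Without thyroid tissue 1 more of the 46 and more of all genes were called. Without either lung library PDK4 and BNIP3 lost their calls, and fewer of all genes were called. Without early mThy14 4 of the 46 and 523 of all genes were called, and without early mThy16 1 and 476. Without late mThy14 it was 0 and 418, with 14 of the 46 at an unadjusted p below 0.05 by limma. The thyroid tissues differed from each other by a median of 0.813 on the log2 scale over the 46 genes, beside 0.905 over all genes.

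**Figure D2:**
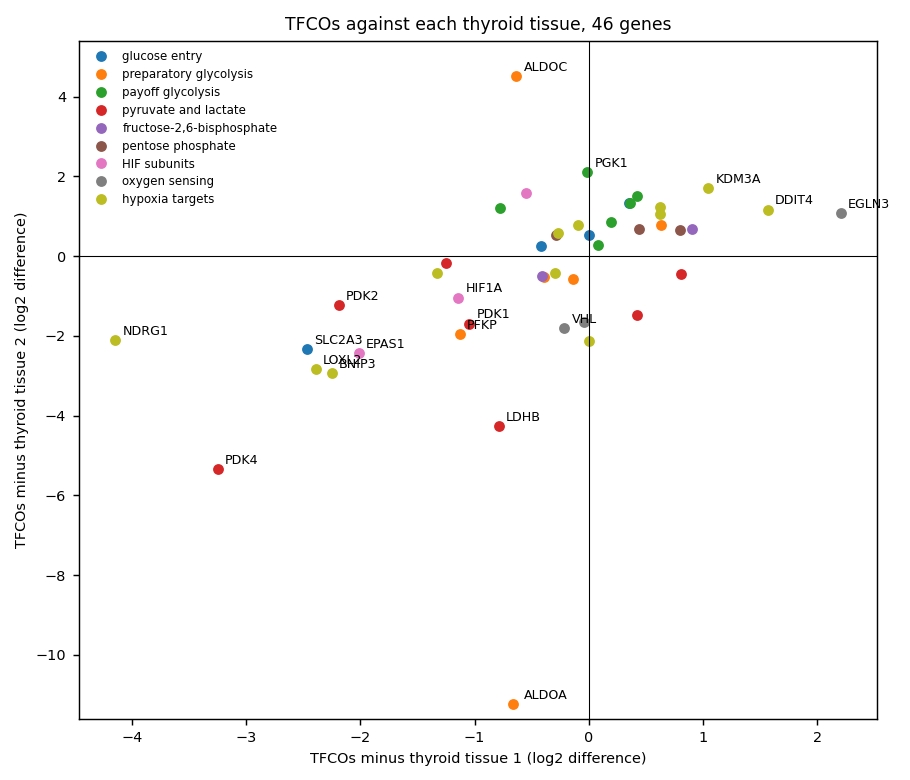
Mean log2 level of the 2 TFCO lines minus thyroid tissue 1 (horizontal) and minus thyroid tissue 2 (vertical) for each of the 46 genes, coloured by role, in log2 units. PDK4, BNIP3, NDRG1, EPAS1, LOXL2 and SLC2A3 lie below 0 on both axes and EGLN3, DDIT4 and KDM3A above 0 on both, while ALDOA and ALDOC lie near 0 on the horizontal axis and at -11.24 and 4.51 on the vertical.

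Against lung tissue, 18 of the 46 genes passed the test, 13 higher and 5 lower in TFCOs. Over all genes the called share was 23.4%, with 9.83% higher and 13.5% lower, so the share called higher among the 46 (28.3%) was above the background and that called lower (10.9%) below it. The higher genes were SLC2A1, PFKL, PFKM, the 6 payoff genes, HIF1A, EGLN3, DDIT4 and KDM3A, and the lower ones SLC2A3, PFKP, PFKFB4, EPAS1 and LOXL2. At an unadjusted p below 0.05 stood 30 of the 46 (65.2%, against 44.7% of all genes). In 20 genes all TFCO libraries were above both lung libraries (43.5%, against 34.4%), and in 14 below both (30.4%, against 33.3%). The median of the 46 was 0.58 beside 0.048 for all genes. With either lung library left out EPAS1 kept its call, the other calls among the 46 were lost, and fewer of all genes were called. With either thyroid tissue left out more of the 46 and more of all genes were called.

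Thyroid tissue against lung gave 5 calls among the 46 (10.9%, against 6.05% of all genes), with PFKM, ENO2, PDK2 and HIF1A higher (8.70%, against 2.89%) and EPAS1 lower in thyroid (2.17%, against 3.16%). In 24 genes both thyroid libraries were above both lung libraries (52.2%, against 26.2% of all genes), and 7 were below both (15.2%, against 27.5%). Within the second set, thyroid tissue 2 exceeded the mean of the lung tissues by 2-fold or more in 18 genes (39.1%, against 15.7% of all genes) and was below it by as much in 7 (15.2%, against 19.1%). In a fit without thyroid tissue 1, PFKM, HIF1A and EPAS1 kept their calls, ENO2 and PDK2 lost theirs and EGLN3 gained one. Without thyroid tissue 2 more of the 46 and more of all genes were called. Without either lung library all calls among the 46 were lost, and fewer of all genes were called. The comparisons share the lung, thyroid and TFCO libraries among them.

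**Figure D3:**
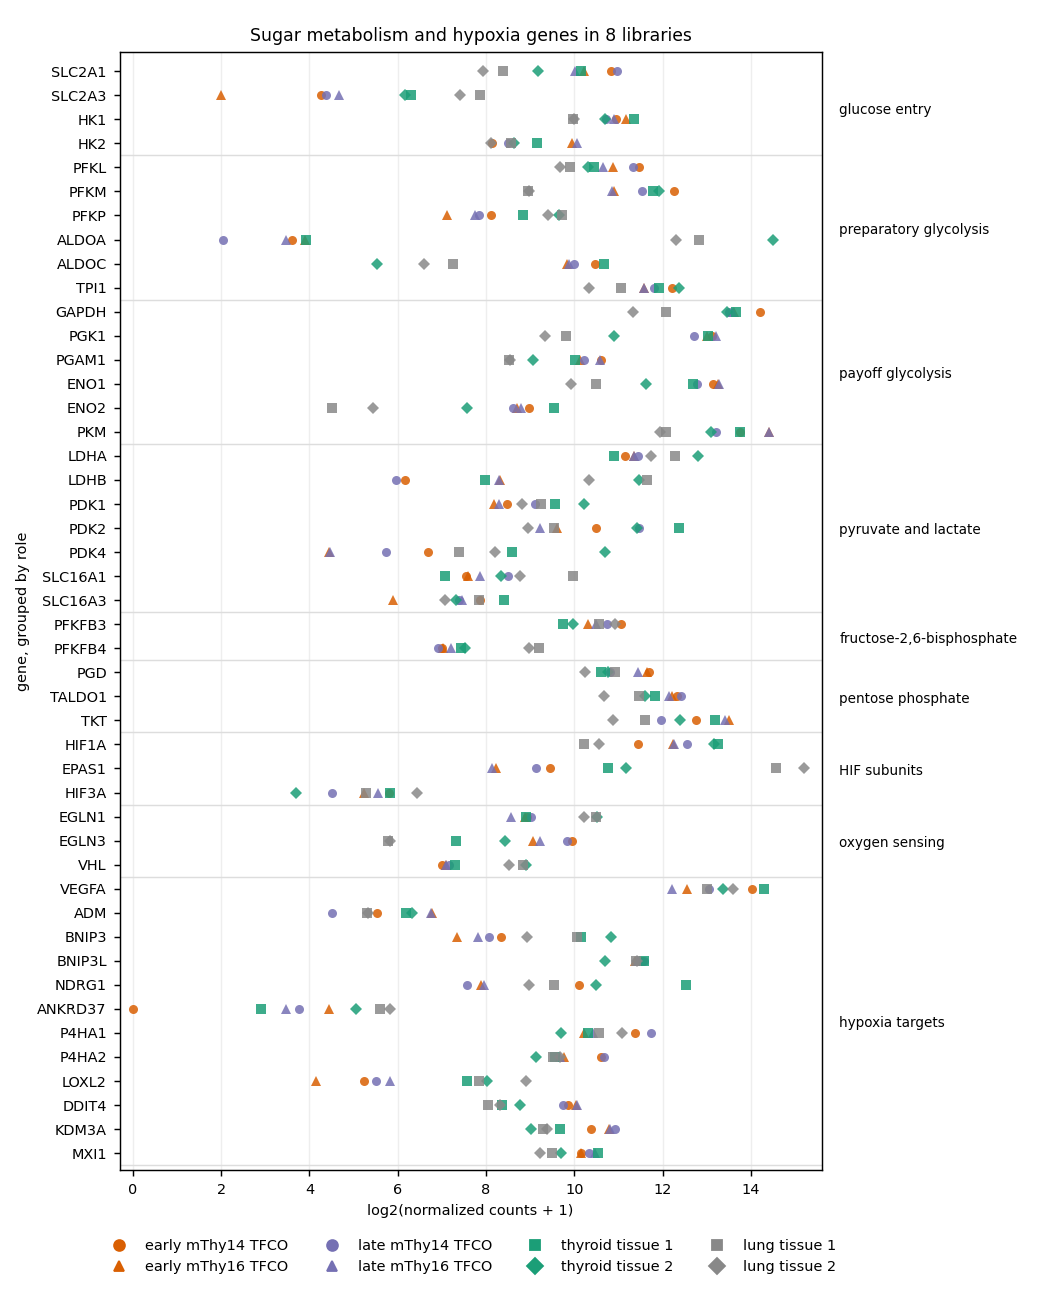
Log2(normalized counts + 1) of the 46 genes in the 8 libraries, grouped by role, with orange for early and purple for late TFCOs (circle mThy14, triangle mThy16), green for thyroid tissue and grey for lung tissue. The payoff genes from GAPDH to PKM sit lowest in lung, and EPAS1 sits far above all other libraries in lung, at 24321 and 37738 normalized counts.

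At glucose entry, the level of SLC2A1, the widespread glucose transporter GLUT1, was above lung in TFCOs. SLC2A1 was counted at 1826 and 1990.1 in early and late mThy14 TFCOs and 1182 and 1038 in early and late mThy16 TFCOs, at 1141 and 576 in thyroid and at 333 and 243 in lung. TFCOs and thyroid overlapped, and both were above lung. The log2 difference was 2.35 ± 0.48 (SE) against lung (limma, adjusted p = 0.0187) and 0.84 ± 0.48 against thyroid (adjusted p = 0.37), or 0.35 against thyroid tissue 1 alone. SLC2A3, the transporter GLUT3, was low in all TFCO libraries, at 18.3 and 19.8 in early and late mThy14 TFCOs and 2.97 and 24.6 in early and late mThy16 TFCOs, against 77.3 and 71.0 in thyroid and 230.3 and 168 in lung. The 4 TFCO libraries were below both thyroid libraries, which were below both lung libraries. The drop against lung passed the test (-3.80 ± 0.74, limma, adjusted p = 0.0163), while the difference from thyroid (-2.40 ± 0.74, adjusted p = 0.145) did not, although it was about as large against thyroid tissue 1 (-2.46). Between 3 and 22 reads were behind each TFCO value of SLC2A3. The hexokinases did not pass any test. HK1, the housekeeping form, was at 1966, 1684, 2318 and 1920.5 in the TFCOs, 2613 and 1649 in thyroid and 996 and 1019.9 in lung. HK2, the inducible form, differed more between lines than between groups, at 278 and 361 in early and late mThy14 TFCOs and 979 and 1065 in early and late mThy16 TFCOs, 568 and 394 in thyroid and 379 and 275 in lung.

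In the preparatory steps, the subunits of phosphofructokinase, which commits sugar to glycolysis, moved apart. PFKM, the muscle subunit, was at 4887 and 2965 in early and late mThy14 TFCOs and 1901 and 1836 in early and late mThy16 TFCOs, 3508 and 3845 in thyroid and 492 and 502 in lung. TFCOs and thyroid overlapped and both lay far above lung, with log2 differences of 2.42 ± 0.41 for TFCOs (limma, adjusted p = 0.0114) and 2.88 ± 0.41 for thyroid (adjusted p = 0.0145). Thyroid tissue 2 alone was above lung by 2.95 on the log2 scale (limma, adjusted p = 0.0396). The muscle markers were high in thyroid tissue and low in TFCOs, where all 9 were below both thyroid tissues, and their part in the thyroid level was not tested. PFKL, the liver subunit, was at 2819, 2554, 1869.7 and 1609 in the TFCOs, 1392 and 1258 in thyroid and 961 and 822 in lung, in that order with no overlap. It rose against lung by 1.28 ± 0.36 (limma, adjusted p = 0.0435). PFKP, the platelet subunit, ran the other way, at 275, 229, 138 and 214, 455 and 807 and 847 and 678. All 4 TFCO libraries were below every tissue library, with log2 differences of -1.86 ± 0.44 against lung (limma, adjusted p = 0.0292), -1.54 ± 0.44 against thyroid (adjusted p = 0.121) and -1.13 against thyroid tissue 1 alone.

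ALDOA and ALDOC passed no test between tissues. The fitted ALDOA difference between TFCOs and thyroid (-5.95 ± 2.84) was -0.67 against thyroid tissue 1 and -11.24 against thyroid tissue 2, on 3 to 14 reads in each first-set library. Within the second set, ALDOA was higher in thyroid tissue 2 than in lung by 1.94 (limma, adjusted p = 0.0949). TPI1, the isomerase that makes both products of the split usable, was at 4759, 3548, 3047 and 3063 in TFCOs, 3895 and 5307 in thyroid and 2118 and 1293 in lung, above lung in every TFCO and thyroid library without a call (adjusted p = 0.0864 and 0.0903 by limma).

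All 6 payoff genes were higher in TFCOs than in lung, by a median of 2.46 on the log2 scale, and all 6 passed the test. All 6 were also higher throughout the first set, so tissue and set cannot be told apart for these differences. GAPDH, which oxidizes the split sugar, was at 18941 and 11617 in early and late mThy14 TFCOs and 12554 and 12399 in early and late mThy16 TFCOs, 12863 and 11324 in thyroid and 4344 and 2572 in lung, a log2 difference of 2.02 ± 0.48 from lung (limma, adjusted p = 0.0293). TFCOs and thyroid overlapped, and the lower lung values overlapped neither. ENO1, the main enolase, was at 8978 and 7045 in early and late mThy14 TFCOs and 9716 and 9914 in early and late mThy16 TFCOs, 6579.6 and 3135 and 1438 and 977, a difference of 2.90 ± 0.48 from lung (limma, adjusted p = 0.0103). ENO2, the enolase known from neurons and endocrine cells, was at 500.4 and 390.3 in early and late mThy14 TFCOs and 418 and 439 in early and late mThy16 TFCOs, 745 and 189 and 21.8 and 42.5. The 2 lung libraries were below the other 6, and ENO2 rose against lung in TFCOs (3.79 ± 0.74, limma, adjusted p = 0.017) and in thyroid (3.58 ± 0.74, adjusted p = 0.0385). Within the second set ENO2 was 2.59 above lung (limma, adjusted p = 0.0775). C cell markers, among them the neuroendocrine granule genes CHGA and CHGB, were also above the other groups in thyroid tissue, and their part in its ENO2 level was not tested.

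The remaining payoff genes rose against lung by 3.43 ± 0.67 for PGK1, 1.85 ± 0.41 for PGAM1 and 1.93 ± 0.53 for PKM, with adjusted p by limma of 0.0166, 0.0239 and 0.0428. PGK1, which makes the first ATP of the payoff, was at 8824, 6699.9, 8265 and 9468 in TFCOs, 8329 and 1918 in thyroid and 903 and 648 in lung. The pyruvate kinase PKM was at 13811, 9399.8, 21656 and 21862, 13773 and 8703 and 4329 and 3924, and the mutase PGAM1 at 1562, 1186, 1115 and 1537, 1039 and 531 and 368 and 370.1. For each of the 6 genes the order within the second set was the same, with thyroid tissue 2 above lung by 0.52 (PGAM1) to 2.59 (ENO2). Against thyroid none of the 6 was called. The differences were 0.17 to 1.04 on the log2 scale against both thyroid tissues, and -0.77 (ENO2) to 0.43 (ENO1) against thyroid tissue 1, with a median of 0.14. With quantile normalization GAPDH (-0.35) and PKM (-0.015) were below both thyroid tissues on average. Near-identical copies limit these values. Of the 50-base stretches of their longest transcripts, 82.5% of GAPDH, 72.2% of ENO1, 68.0% of PGK1, 41.5% of PGAM1 and 34.4% of PKM also occur in transcripts of other genes, so how the authors assigned such reads could move them.

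Where pyruvate divides between lactate and mitochondria, PDK4 fell in TFCOs. PDK4, a kinase that shuts pyruvate dehydrogenase in fasting and in fat-burning muscle, was counted at 103 and 52.0 in early and late mThy14 TFCOs and 20.8 and 21.2 in early and late mThy16 TFCOs, at 382 and 1648 in thyroid and at 167 and 296 in lung. Every TFCO library was below every tissue library, and the TFCO lines and the thyroid tissues each spread widely. The log2 difference from thyroid was -4.30 ± 0.88 (limma, adjusted p = 0.0491), and 5 of 14 alternatives kept the call (adjusted p 0.0127 to 0.164). Against thyroid tissue 1 alone it was -3.25 (limma, adjusted p = 0.164 without thyroid tissue 2). Muscle and adipocyte sums were also higher in thyroid than in TFCOs. The muscle sum was 2595 to 3392 in TFCOs and 71058 and 189558 in thyroid. In lung it was 255 and 687, below the TFCOs. The sum of 4 adipocyte markers was 16.7 to 50.6 in TFCOs, 1711 and 2593 in thyroid and 1184 and 202 in lung. Of the 4, 3 were above every TFCO library in both thyroid tissues. The fourth, ADIPOQ, was at 3.27 in thyroid tissue 1, against 12.6 and 11.9 in early mThy14 and early mThy16 TFCOs. The part of muscle and adipocyte RNA in the PDK4 difference was not tested.

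The other kinases gave no call against thyroid. PDK1, a HIF target, was at 356 and 554 in early and late mThy14 TFCOs and 291 and 312 in early and late mThy16 TFCOs, 755 and 1189 in thyroid and 605 and 447 in lung. TFCOs were below both thyroid libraries, by -1.37 ± 0.41 (limma, adjusted p = 0.14) and by -1.04 against thyroid tissue 1. PDK2, the widespread kinase, was at 1431 and 2806 in early and late mThy14 TFCOs and 777 and 597 in early and late mThy16 TFCOs, 5334 and 2759 and 747 and 491. Late mThy14 lay between the thyroid libraries, and PDK2 was higher in thyroid than in lung by 2.66 ± 0.59 (limma, adjusted p = 0.048), a call lost without thyroid tissue 1 (2.18, adjusted p = 0.156).

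LDHA, which turns pyruvate into lactate, was close between the TFCO libraries, at 2267, 2780.1, 2623 and 2591, and was at 1909 and 7105 in thyroid and 4971 and 3389.9 in lung. The TFCO values lay between the 2 thyroid libraries and below lung, and no comparison was called. LDHA was among the genes lower throughout the first set, and against thyroid tissue 1 alone its log2 difference was 0.42. LDHB, the lactate dehydrogenase of oxidative tissue, split the TFCO lines, at 70.3 and 61.4 in early and late mThy14 TFCOs and 317 and 312 in early and late mThy16 TFCOs, with 249 and 2804 in thyroid and 3205 and 1291 in lung. Line mThy14 was lower than mThy16 by -2.24 on the log2 scale, and against thyroid tissue 1 the mean of the lines differed by -0.79. The lactate carriers gave no call. SLC16A1 (MCT1) was at 187, 358, 192 and 230.3 in TFCOs, 133 and 321 in thyroid and 1005 and 436 in lung, and SLC16A3 (MCT4), known from glycolytic cells, at 232, 168, 58.4 and 176, 339 and 159 and 227 and 133.

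The enzymes that set fructose-2,6-bisphosphate, the activator of phosphofructokinase, did not move together. PFKFB3 was at 2139, 1718, 1268 and 1436 in TFCOs, 861 and 1003 in thyroid and 1509 and 1927 in lung, above both thyroid libraries by 0.79 ± 0.35 without a call (limma, adjusted p = 0.288). Against thyroid tissue 1 alone the PFKFB3 difference was 0.90. PFKFB4 was at 128, 119, 129 and 148, 173 and 183 and 587 and 503. The lung libraries stood well above the rest, and PFKFB4 was lower in TFCOs than in lung by -2.05 ± 0.42 (limma, adjusted p = 0.0201). Within the second set thyroid tissue 2 was below lung by -1.56 (limma, adjusted p = 0.0956).

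The 3 pentose phosphate genes were on average higher in TFCOs than in lung and none was called. PGD and TALDO1 were also above thyroid on average, while the sign of TKT depended on the processing and the libraries (-0.33 with quantile normalization, -0.086 without early mThy14). PGD, the second NADPH-making step, was at 3313 and 1803 in early and late mThy14 TFCOs and 3216 and 2778 in early and late mThy16 TFCOs, 1552 and 1725 in thyroid and 1952 and 1211 in lung. Its TFCO libraries were above both thyroid libraries, by 0.72 ± 0.37 (limma, adjusted p = 0.34) and by 0.80 against thyroid tissue 1. TKT, which returns pentoses to glycolysis, was at 6946 and 3973 in early and late mThy14 TFCOs and 11574 and 10972 in early and late mThy16 TFCOs, 9376 and 5377 and 3108 and 1869. It differed between the lines by -1.10 (mThy14 minus mThy16) and from thyroid by 0.12 ± 0.55, or -0.29 against thyroid tissue 1, where the sign turned. TALDO1, the partner of TKT, was at 5137, 5466, 4709 and 4546, 3651 and 3080.3 and 2816 and 1632, above every tissue library, by 0.56 ± 0.41 against thyroid and 1.21 ± 0.41 against lung (limma, adjusted p = 0.456 and 0.0667). Against thyroid tissue 1 alone the TALDO1 difference was 0.44.

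HIF1A and EPAS1 set lung apart from thyroid and TFCOs, and HIF3A did not. HIF1A, the subunit that drives glycolytic genes, was at 2762 and 5994 in early and late mThy14 TFCOs and 4798 and 4882 in early and late mThy16 TFCOs, 9787 and 9185 in thyroid and 1187 and 1511 in lung. The thyroid libraries were highest, the TFCOs in between and lung lowest, with no overlap. HIF1A rose against lung in thyroid by 2.82 ± 0.37 (limma, adjusted p = 0.0109), in thyroid tissue 2 alone by 2.78 (adjusted p = 0.0251), and in TFCOs by 1.73 ± 0.37 (adjusted p = 0.0217). TFCOs were below thyroid by -1.10 ± 0.37 without a call (limma, adjusted p = 0.176), a difference of -1.14 against thyroid tissue 1.

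EPAS1, the gene of HIF-2 alpha at chr17:86753864-86833410 (GRCm38.p6), known from endothelial cells and lung epithelium, gave the largest called difference among the 46 genes. It was counted at 703 and 564 in early and late mThy14 TFCOs and 297 and 282 in early and late mThy16 TFCOs, at 1727 and 2309 in thyroid and at 24321 and 37738 in lung. The groups did not overlap, and the lung libraries were far above all others. The log2 difference between TFCOs and lung was -6.15 ± 0.49 (limma, adjusted p = 0.000965), and all 14 alternatives kept the call. Thyroid was below lung by -3.92 ± 0.49 (limma, adjusted p = 0.00962), and thyroid tissue 2 alone by -3.71 (adjusted p = 0.0359). TFCOs were below thyroid by -2.22 ± 0.49 (limma, adjusted p = 0.0603) and below thyroid tissue 1 by -2.01, neither of which was called. The sum of endothelial markers (6 genes, among them CDH5 and CLDN5) followed the same order, at 353 to 782 in TFCOs, 3482 and 7529 in thyroid and 24809.7 and 45882 in lung. Of the 6, 5 were above every TFCO library in both thyroid tissues. EGFL7 was not, at 356 and 306 in early and late mThy14 TFCOs against 348 in thyroid tissue 1. None of the 6 was at 0 in the TFCOs, where CDH5 was 1.04 to 28.1, and the part of endothelial RNA in the EPAS1 differences was not tested. The lung epithelium genes SFTPC and SCGB1A1 were at 241128 and 180943 and 665857 and 261418 in lung and at most 266 and 30.4 in the other 6 libraries, and SFTPA1 at most 13.5 in those 6. The fourth gene of that list, AGER, was counted in all libraries, at 2958 to 19366 in TFCOs, 20265 and 15011 in thyroid and 57060.1 and 23371 in lung. HIF3A, a subunit that can restrain the others, stayed low, at 54.8, 21.9, 36.6 and 45.8 in TFCOs, 55.5 and 12.0 in thyroid and 37.7 and 84.9 in lung, with no call.

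Among the oxygen sensors, EGLN3, a prolyl hydroxylase that is itself a HIF target, was highest in TFCOs. EGLN3 was at 988 and 909 in early and late mThy14 TFCOs and 533 and 598 in early and late mThy16 TFCOs, 158 and 346 in thyroid and 53.6 and 55.3 in lung. All 4 TFCO libraries were above both thyroid libraries, which were above both lung libraries. It rose against lung by 3.72 ± 0.56 (limma, adjusted p = 0.0078), and against thyroid it was higher by 1.64 ± 0.56 without a call (adjusted p = 0.185), a difference that was 2.20 against thyroid tissue 1. Thyroid tissue 2 alone was above lung by 2.64 (limma, adjusted p = 0.0494). EGLN1, the main sensor of oxygen, and VHL, the ligase that follows it, went with the library sets. EGLN1 was at 485, 521, 474 and 376 in TFCOs, 475 and 1464 in thyroid and 1429.8 and 1188 in lung, and VHL at 128, 142, 136 and 135, 157 and 476 and 453 and 367. Within a set both were close, differing by -0.043 and -0.21 between TFCOs and thyroid tissue 1 and by 0.17 and 0.22 between thyroid tissue 2 and lung.

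The 12 hypoxia targets did not move one way. Against both thyroid tissues 6 were higher and 6 lower, with a median of -0.11, and against thyroid tissue 1 there were 5 higher and 7 lower. BNIP3, a mitophagy receptor induced by HIF-1 at chr7:138890836-138909506 (GRCm38.p6), was the target that passed the test. It was counted at 322 and 267 in early and late mThy14 TFCOs and 161 and 226 in early and late mThy16 TFCOs, at 1130.0 and 1823 in thyroid and at 1066 and 487 in lung. Every TFCO library was below every tissue library. BNIP3 fell in TFCOs against thyroid by -2.59 ± 0.50 on the log2 scale (limma, adjusted p = 0.0413), and 8 of 14 alternatives kept the call (adjusted p 0.00701 to 0.154). Against thyroid tissue 1 alone it was -2.25 (limma, adjusted p = 0.154 without thyroid tissue 2), and 21.9% of its 50-base stretches occur in transcripts of other genes. Its paralog BNIP3L, also a mitophagy receptor, was level across the first set, at 2975, 3047, 2645 and 2790.2 in TFCOs and 3052 in thyroid tissue 1, with 1656 in thyroid tissue 2 and 2688 and 2745 in lung. In BNIP3L, 23.4% of the 50-base stretches are shared with other transcripts.

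NDRG1, a stress-induced gene that HIF and other factors raise, had the largest difference from thyroid tissue 1. It was at 1101 and 187 in early and late mThy14 TFCOs and 237 and 246 in early and late mThy16 TFCOs, 5871 and 1436 in thyroid and 740.5 and 499 in lung. Early mThy14 was the highest TFCO library, and all 4 were below thyroid. The log2 difference from thyroid was -3.13 ± 0.68 (limma, adjusted p = 0.0592), and -4.14 against thyroid tissue 1, where it was the only one of the 46 genes called (adjusted p = 0.0462, in a fit in which 0.939% of all genes were called lower). LOXL2, a collagen cross-linker, was at 36.5, 44.8, 16.8 and 55.9 in TFCOs, 189 and 260.0 in thyroid and 228 and 476 in lung. It fell against lung by -3.18 ± 0.60 (limma, adjusted p = 0.0154) and was lower than thyroid by -2.62 ± 0.60 (adjusted p = 0.0674) and than thyroid tissue 1 by -2.39. The 5 fibroblast markers moved with it, with sums of 76.0 to 223 in TFCOs, 22302 and 21177 in thyroid and 17109 and 28592 in lung and LUM listed at 0 in all 4 TFCO libraries, and their part was not tested. In LOXL2, 45.8% of the 50-base stretches are shared with other transcripts.

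DDIT4 and KDM3A were higher in TFCOs than in every tissue library. DDIT4, an inhibitor of mTORC1 raised by low oxygen and other stress, was at 929 and 850.4 in early and late mThy14 TFCOs and 1056 and 1061 in early and late mThy16 TFCOs, 327 and 434 in thyroid and 265 and 317 in lung. It rose against lung by 1.74 ± 0.37 (limma, adjusted p = 0.0215), and was higher than thyroid by 1.36 ± 0.37 (adjusted p = 0.105) and than thyroid tissue 1 by 1.57. KDM3A, a histone demethylase under HIF, was at 1324, 1948, 1775 and 1779 in TFCOs, 818 and 520.0 in thyroid and 621 and 665 in lung. The differences were 1.39 ± 0.36 from lung (limma, adjusted p = 0.036), 1.37 ± 0.36 from thyroid (adjusted p = 0.0969) and 1.05 from thyroid tissue 1.

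The other targets gave no call. VEGFA, the vascular growth factor, was at 16572 and 8444 in early and late mThy14 TFCOs and 6024 and 4742 in early and late mThy16 TFCOs, 20003 and 10620.1 in thyroid and 8254 and 12338 in lung, and its highest TFCO library lay between the thyroid tissues. P4HA1 and P4HA2 are collagen prolyl hydroxylases. P4HA1 was at 2645, 3388, 1187 and 1366 in TFCOs, 1270.4 and 828 in thyroid and 1495 and 2155 in lung, and P4HA2 at 1556, 1634, 867 and 817, 751 and 561 and 734 and 817. P4HA2 was above both thyroid libraries in all TFCOs, by 0.84 ± 0.41 (limma, adjusted p = 0.326) and by 0.62 against thyroid tissue 1. MXI1, a MYC antagonist, was at 1127 to 1407 in TFCOs, 1489 and 829 in thyroid and 724 and 596 in lung. The vasodilator peptide ADM (21.9 to 109, 71.8 and 79.3 and 38.5 and 39.1) and ANKRD37 (0 to 20.8, 6.53 and 32.3 and 47.7 and 55.9) were low everywhere.

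HIF binds a short core, ACGTG or GCGTG, in promoters and enhancers. The promoters of 4 genes are shown because they held this core and because their genes differed in direction. BNIP3 was lower and DDIT4 and EGLN3 were higher in TFCOs than in thyroid tissue, and LDHA lay between the thyroid tissues. Of the 4, only BNIP3 was called against thyroid. LDHA was above thyroid tissue 1 by 0.42 on the log2 scale and below thyroid tissue 2, which is in the other library set. Each promoter runs 5′ to 3′ on the gene's strand from 250 bases before to 50 bases after the start, taken from RefSeq (GRCm38.p6), with every ACGTG or GCGTG on either strand in capitals. They lie at chr7:138909457-138909756 (minus strand) for BNIP3, chr10:59951721-59952020 (minus) for DDIT4, chr12:54203825-54204124 (minus) for EGLN3 and chr7:46845554-46845853 (plus) for LDHA.
BNIP3: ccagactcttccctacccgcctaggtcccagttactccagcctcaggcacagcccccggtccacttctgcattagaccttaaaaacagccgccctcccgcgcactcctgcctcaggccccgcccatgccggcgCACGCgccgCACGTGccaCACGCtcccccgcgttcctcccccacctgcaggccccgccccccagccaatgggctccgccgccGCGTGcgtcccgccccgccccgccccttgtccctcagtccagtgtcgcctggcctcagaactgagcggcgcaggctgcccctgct
DDIT4: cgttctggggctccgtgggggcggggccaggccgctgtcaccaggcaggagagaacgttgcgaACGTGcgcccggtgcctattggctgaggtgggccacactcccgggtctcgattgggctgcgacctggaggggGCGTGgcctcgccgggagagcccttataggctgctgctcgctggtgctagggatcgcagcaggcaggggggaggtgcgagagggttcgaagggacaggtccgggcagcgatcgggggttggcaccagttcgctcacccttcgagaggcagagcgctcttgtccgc
EGLN3: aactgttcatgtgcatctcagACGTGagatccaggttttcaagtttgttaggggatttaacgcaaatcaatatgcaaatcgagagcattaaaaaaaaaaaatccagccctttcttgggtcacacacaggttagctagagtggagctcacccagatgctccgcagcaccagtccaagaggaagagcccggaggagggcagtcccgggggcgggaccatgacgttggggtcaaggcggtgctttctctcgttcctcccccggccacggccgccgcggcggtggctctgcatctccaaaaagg
LDHA: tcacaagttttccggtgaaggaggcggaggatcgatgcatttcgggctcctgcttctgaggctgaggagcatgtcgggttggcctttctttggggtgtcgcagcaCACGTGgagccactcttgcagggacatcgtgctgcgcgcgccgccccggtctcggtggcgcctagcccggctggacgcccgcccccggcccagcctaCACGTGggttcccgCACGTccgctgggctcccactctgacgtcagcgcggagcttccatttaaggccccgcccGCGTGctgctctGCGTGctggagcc
The letters CACGTG, which read the same on both strands, count once on each, and the LDHA promoter holds them at 2 places. Promoters were listed for 41 of the 46 genes, 61 in all. ACGTG stood in 29 of the 61 (47.5%), against 23.4% of 15814 promoters of the genes of the table, and ACGTG or GCGTG in 77.0% against 57.1%. The 4 promoters shown were picked for holding the core and for their genes' directions, so they cannot tell whether the core goes with direction. A match is a run of letters, not a measured binding site.

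Ratios between related genes show how the make-up of an enzyme differed between libraries. Gene length cancels when 1 ratio is compared between libraries counted on the same reference, which was not given for the 2 library sets. Ratios of TFCOs beside those of lung or thyroid tissue 2 also cross the sets. Ratios of different pairs are not set against each other. EPAS1 over HIF1A was 0.0577 to 0.254 in TFCOs, 0.176 and 0.251 in thyroid and 20.5 and 25 in lung. PFKP over PFKL was 0.0736 to 0.133, 0.327 and 0.641 and 0.881 and 0.825, and PFKM over PFKL was 1.02 to 1.73, 2.52 and 3.05 and 0.512 and 0.61. In both phosphofructokinase pairs the TFCOs overlapped no tissue library, while for EPAS1 over HIF1A they overlapped thyroid. SLC2A3 over SLC2A1 was lowest in TFCOs (0.00251 to 0.0237), followed by thyroid (0.0677 and 0.123) and lung (0.691 and 0.69), and PFKFB4 over PFKFB3 in the same order (0.0598 to 0.103, 0.201 and 0.183 and 0.389 and 0.261).

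The lines differed in some ratios. LDHB over LDHA was 0.031 and 0.0221 in early and late mThy14 and 0.121 and 0.12 in early and late mThy16, with 0.131 and 0.395 in thyroid and 0.645 and 0.381 in lung. HK2 over HK1 was 0.142 and 0.214 in mThy14 and 0.422 and 0.555 in mThy16, and the thyroid (0.217 and 0.239) and lung values (0.38 and 0.27) lay between. PDK2 over PDK1 was 4.02 and 5.07 in mThy14 and 2.67 and 1.91 in mThy16, with 7.06 and 2.32 in thyroid and 1.24 and 1.1 in lung. In 4 further pairs at least 1 tissue library lay within the TFCO range. They were ENO2 over ENO1 (0.043 to 0.0557 in TFCOs, 0.113 and 0.0603 in thyroid, 0.0151 and 0.0435 in lung), SLC16A3 over SLC16A1 (0.304 to 1.24, 2.55 and 0.494, 0.226 and 0.304), P4HA2 over P4HA1 (0.482 to 0.731, 0.591 and 0.677, 0.491 and 0.379) and PDK4 over PDK1 (0.0681 to 0.289, 0.506 and 1.39, 0.276 and 0.662). ALDOC over ALDOA followed the library sets, at 65.4 to 326 in TFCOs, 116 and 0.00196 in thyroid and 0.021 and 0.0191 in lung.

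**Figure D4:**
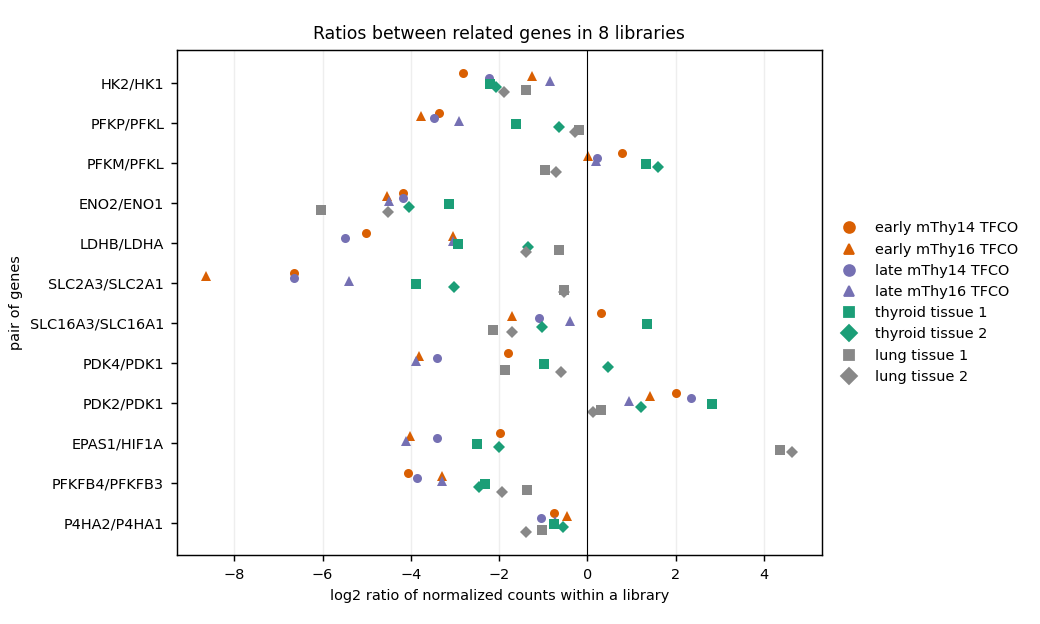
Log2 ratio of normalized counts between related genes within each of the 8 libraries, for 12 pairs. EPAS1 over HIF1A stands far to the right in lung (ratios 20.5 and 25), PFKP over PFKL is lowest in the 4 TFCO libraries (0.0736 to 0.133), and LDHB over LDHA separates the mThy14 circles from the mThy16 triangles.

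Late and early passages were compared to see whether sugar use and the hypoxia response drifted in culture. No gene of the 46 passed the test (limma, 0 of 14703 genes tested, with 166 genes or 1.13% at an unadjusted p below 0.05, none of them among the 46). Voom on the reads gave 0 calls too, with 84 genes at an unadjusted p below 0.05. The 2 lines went the same way in 21 of the 46 genes (10 higher and 11 lower at late passage), and in none did both change by 2-fold or more. Differences of 2-fold or more were seen for 6 genes in mThy14 and 3 in mThy16. In mThy14 they were ALDOA (-1.57 on the log2 scale), HIF1A (1.12), HIF3A (-1.29), ADM (-1.01), NDRG1 (-2.55) and ANKRD37 (3.75), and in mThy16 SLC2A3 (2.69), SLC16A3 (1.57) and LOXL2 (1.67). Few reads were behind several of them. Early and late mThy14 had 8 and 3 for ALDOA, 39 and 21 for HIF3A, 32 and 21 for ADM and 0 and 12 for ANKRD37. Early and late mThy16 had 3 and 22 for SLC2A3 and 17 and 50 for LOXL2. How many of all genes changed by 2-fold or more in a line was not counted. HIF1A was at 2762 and 5994 in early and late mThy14 and 4798 and 4882 in early and late mThy16, a fitted difference of 0.57 ± 0.39.

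In mThy14, all 6 payoff genes and all 6 preparatory genes were lower at late passage, the payoff genes by -0.35 to -0.71 on the log2 scale, with TKT at -0.81, PGD at -0.88 and VEGFA at -0.97. In mThy16 the payoff genes moved by -0.018 to 0.46. Of the TFCO libraries late mThy14 was also lowest in all 4 proliferation markers (MKI67, TOP2A, CCNB1 and CDK1), with a sum of 196 against up to 2912 in the other TFCO libraries, 318 and 885 in thyroid and 678 and 564 in lung. Their part in the mThy14 differences was not tested, and 1 library per line and passage gives no replicate within a line.

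**Figure D5:**
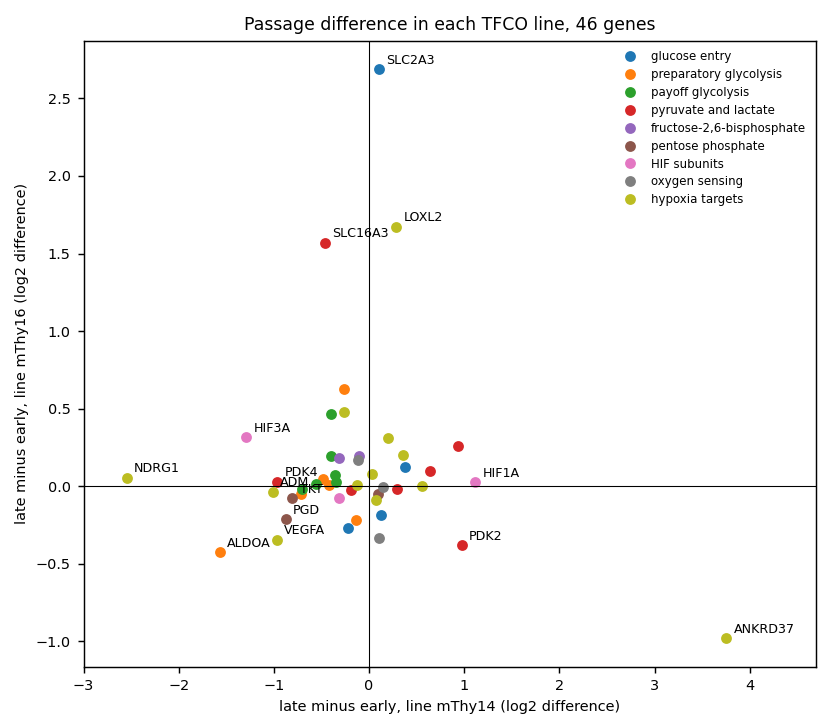
Late minus early passage on the log2 scale in line mThy14 (horizontal) and mThy16 (vertical) for the 46 genes, coloured by role. No point is beyond 1 on both axes, NDRG1 (-2.55) and ANKRD37 (3.75) lie farthest out in mThy14, and SLC2A3 (2.69) farthest out in mThy16.

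Other genes of the pathways were taken from lists chosen by function, 42 of sugar metabolism (38 tested) and 29 of the hypoxia response (26 tested). Against thyroid, 6 sugar genes fell in TFCOs and none rose, while 1 hypoxia gene rose and none fell. That is 15.8% of the sugar genes lower, against 3.05% of all genes, and 3.85% of the hypoxia genes higher, against 0.599%. The 6 were FBP1 and FBP2, the fructose bisphosphatases, PCK1, the entry step of gluconeogenesis, SLC2A4, the insulin-regulated GLUT4 of muscle and fat, MLXIPL, the sugar-sensing factor ChREBP, and BPGM, which makes 2,3-bisphosphoglycerate in red cells. PCK1 was at 23.9 and 31.2 in early and late mThy14 TFCOs and 8.91 and 31.3 in early and late mThy16 TFCOs and at 2014 and 1394 in thyroid and 109 and 30.3 in lung, a log2 difference of -6.22 ± 0.74 from thyroid (limma, adjusted p = 0.00899) and -6.48 from thyroid tissue 1. SLC2A4 was at 98.4, 94.7, 44.6 and 82.7, 844 and 857 and 102 and 98.4, a difference of -3.46 ± 0.48 (limma, adjusted p = 0.0142) and -3.44 from thyroid tissue 1. FBP1, FBP2, MLXIPL and BPGM differed from thyroid by -6.63, -5.39, -3.34 and -2.31, and from thyroid tissue 1 by -5.79, -5.07, -3.77 and -2.11. FBP1 and FBP2 were each listed at 0 in 2 TFCO libraries and reached 30.9 and 8.43 in early mThy14, so their values depend on the pseudocount. The muscle and adipocyte sums were also higher in thyroid than in TFCOs. The red cell gene ALAS2 moved with BPGM (2.24 to 21.1 in TFCOs, 2778 and 1838 in thyroid, 2085 and 1854 in lung). The part of these cells was not tested. The sugar list had a median of -0.84 against thyroid and -0.68 against thyroid tissue 1, beside 0.046 and 0.022 for all genes.

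ARNT2, a partner of the HIF alpha subunits in neural and other cells, was the hypoxia gene that rose. It was counted at 513 and 323 in early and late mThy14 TFCOs and 1232 and 1523 in early and late mThy16 TFCOs, at 40.3 and 39.6 in thyroid and 19.3 and 20.2 in lung. All 4 TFCO libraries were far above every tissue library, by 4.19 ± 0.76 against thyroid (limma, adjusted p = 0.0341), 4.18 against thyroid tissue 1 and 5.17 ± 0.76 against lung (adjusted p = 0.007). The usual partner ARNT was at 1064 to 1463 in TFCOs, 1374 and 755 in thyroid and 919 and 1103 in lung. Against lung, the hypoxia list gave 3 genes higher in TFCOs (ARNT2, STC2 at 3.96 and CITED2 at 2.28) and 6 lower (COX4I2 at -6.93, LOX at -6.93, HILPDA at -5.76, ANGPTL4 at -3.68, HMOX1 at -2.99 and TFRC at -2.50), or 11.5% and 23.1% of the list against 9.83% and 13.5% of all genes. COX4I2 and LOX were each listed at 0 in 1 TFCO library, so their values depend on the pseudocount. STC2, a secreted glycoprotein, was at 564, 1096, 1576 and 1589.6 in TFCOs, 158 and 346 in thyroid and 74.5 and 67.4 in lung. The sugar list gave 4 higher (PGK2, PDP1 at 2.13, ADPGK at 1.75 and ENO3 at 1.65) and 1 lower (BPGM at -2.64), or 10.5% and 2.63%, near and below the same background. PGK2 was listed at 0 in both lung libraries, so no fold is given. Leukocyte markers (5 genes) were 50.6 to 78.2 in TFCOs and 4798 and 3268 in lung, and their part in genes such as HMOX1 was not tested. Between thyroid and lung, PCK1 (4.84), ENO3 (3.62), MLXIPL (3.27) and SLC2A4 (3.07) were higher in thyroid (10.5% of the sugar genes, against 2.89% of all genes) and HILPDA (-4.52) lower (3.85% of the hypoxia genes, against 3.16%), and thyroid tissue 2 alone differed from lung by 4.57, 4.09, 2.84, 3.08 and -3.58.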

How the data were processed

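RNA of TFCOs, thyroid tissue and lung tissue was extracted with the RNeasy kit and sequenced in bulk. The labels describe an adapted CEL-Seq protocol, and the methods of the study a stranded TruSeq mRNA kit, sequencing of both ends and alignment to the genome of the mouse. The submitters' processing notes name BWA 0.6.2-r126 and the builds hg38 and mm10 without giving their roles, and the annotation and counting settings were not given in the sources used here. The authors deposited 1 table of signal values, which are normalized counts, that is reads per gene divided by 1 size factor per library. The values above 0 in each column were whole multiples of 1 step (tolerance 0.01 reads), so reads could be read back. Rows run in 270 blocks of 1 mouse chromosome (98.3% of neighbouring rows), after 16072 capital symbols were matched to mouse symbols in RefSeq. The first rows are SAMD11, NOC2L and PLEKHN1. Rows sorted by mouse chromosome would make 1 block for each chromosome. The 98.3% alone therefore does not tell on which genome a library was counted.

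Values were analysed as log2(normalized counts + 1) in limma 3.58.1 (R 4.3.3, with the trend option). Genes entered if at least 2 libraries reached 10 (14703 genes, all 46 included), and p-values were adjusted over them by the Benjamini-Hochberg method. The passages of a line were averaged before TFCOs were compared with tissue. Late and early passages were compared in 1 fit of all 8 libraries, each as a sample. An SE is that of the fitted log2 difference. With 2 samples a group, an adjusted p rests only on the spread within these samples, pooled over the groups of a fit and moderated across genes. An adjusted p for TFCOs against thyroid therefore also depends on the lung libraries. Lines pair the passages, since both come from the same mouse (correlation of the line differences at early and late passage across genes, 0.48).

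All 46 genes are accounted for. Values in every library are given for genes called in any comparison, genes whose TFCO libraries did not overlap thyroid and differed by 2-fold or more, members of 13 gene pairs compared as ratios, and 10 genes picked by name. The genes, lists and marker sets were chosen with earlier results of these data known. Count tests in other packages, planned as alternatives, were not run, and limma voom on the reads, chosen after the data were seen, took their place. On simulated counts for 14326 tested genes, the fit of TFCOs against thyroid recovered 170 of 194 changed genes (74 changed 4-fold and 96 changed 8-fold) and called 0 unchanged ones. Against lung it called 3 unchanged ones. The simulation used the same dispersion for every gene, with no library sets and no differences between lines. It checks that the fit runs as intended and does not give the power or false calls on the real libraries. Shared 50-base stretches were counted in GENCODE M21 transcripts, and promoters, gene positions and symbols came from RefSeq (GRCm38.p6). In 12 of the 46 genes more than 10% of the stretches were shared. Beside the genes given with such a share above, they were LDHB (27.0%), LDHA (16.6%), ALDOA (13.5%) and TALDO1 (10.9%). A follicular marker and a sugar gene of these lists are not reported here.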

Additional observations from a re-analysis of the deposited data

Results flagged for a closer look

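In 5 of the 46 genes the lines went opposite ways between early and late passage and lay more than 1 apart on the log2 scale. The difference between the lines was not tested, since each line has 1 library per passage. PDK2 was higher at late passage in mThy14 (0.97) and lower in mThy16 (-0.38). SLC16A3 was lower in mThy14 (-0.47) and higher in mThy16 (1.57), from 58.4 to 176 normalized counts. HIF3A was lower in mThy14 (-1.29) and higher in mThy16 (0.32), at no more than 54.8 normalized counts in any TFCO library. NDRG1 was lower in mThy14 (-2.55), from 1101 to 187, and about level in mThy16 (0.055). ANKRD37 was higher in mThy14 (3.75) and lower in mThy16 (-0.98), from 0 reads in early mThy14, so the first value depends on the pseudocount of 1.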

How the results depend on the processing

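Over 14 alternatives, 385 of 462 single differences between TFCOs and lung (33 genes) kept their side of the threshold, 74 lost a call and 3 gained one, and between thyroid and lung 101 of 140 (10 genes) kept it and 39 lost it. Between TFCOs and thyroid (33 genes) 379 of 462 kept it, 53 lost a call, 22 gained one and 8 uncalled ones turned direction. The 8 were GAPDH (-0.35), PKM (-0.015) and TKT (-0.33) with quantile normalization, GAPDH (-0.00358) and TKT (-0.086) without early mThy14, and PGK1 (-0.014), ENO2 (-0.77) and TKT (-0.29) without thyroid tissue 2. With 1 library left out these differences reached at most 0.35 for GAPDH, 2.10 for PGK1, 1.20 for ENO2 and 0.52 for TKT. Most of the 33 genes compared between TFCOs and thyroid were not called in the main fit. They count as kept where they stayed uncalled, so 379 of 462 is not the share of calls kept. For TFCOs against thyroid, the 536 genes called became 225 with voom, 1322 with the 4 TFCO libraries as separate samples and 153 to 4085 when 1 library was left out. The 2 calls among the 46 became 1 with a pseudocount of 10 or without the filter, 0 with quantile normalization (14 at an unadjusted p below 0.05) or voom (13), 10 with separate samples and 0 to 17 when 1 library was left out, and the median of the 46 ranged from -0.24 to 0.042. For TFCOs against lung, the 3435 genes and 18 of the 46 became 6625 and 31 with separate samples, and 248 to 6986 and 1 to 30 when 1 library was left out. For thyroid against lung, the 889 genes and 5 of the 46 became 572 and 3 with voom, 58 to 4311 and 0 to 18 when 1 library was left out, and the median ranged from 0.45 to 0.79. For late against early passage, 0 to 2 genes were called when 1 library was left out, 2 of them without late mThy16, and the median of the 46 ranged from -0.15 to 0.11. In these fits a group left with 1 library is assumed to vary like the other groups. Apart from fewer samples where a library was left out, the cause was not tested.

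The replicate block by line gave 0 calls for late against early passage, as did the fit without it (224 genes against 166 at an unadjusted p below 0.05). The tissue numbers do not pair thyroid with lung (correlation -0.073), and with them as a replicate block 167 genes and 0 of the 46 were called (16 at an unadjusted p below 0.05). The planned count tests on reads were not run. Between 3 and 22 reads in TFCOs for SLC2A3, and 0 to 21 for ANKRD37, limit what can be said of those genes.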
